A study of Mus musculus with 8 samples.

Results

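The genes described here are 40 genes of endoplasmic reticulum (ER) protein folding and the unfolded protein response, listed by name for their known roles; earlier results of these data were known when the list was made. Of the 40 genes, 39 had entries under their own Ensembl identifier and 38 were abundant enough to be tested, out of 10420 genes tested in all. They comprised 12 ER chaperones and co-chaperones, 6 genes of disulphide formation, 9 stress sensors and transcription factors, 8 genes of ER-associated degradation and 5 subunits of the translocon and its partner complex.

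RNA was sequenced from small-intestinal crypt organoids of MG53-TG mice, which carry a transgene that overexpresses MG53 (Trim72, a membrane repair protein), and of their wild-type (WT) littermates, with 4 samples in each group. Organoids of both genotypes grew in Matrigel in IntestiCult medium, and the labels name no other treatment. The labels give the genotypes as wt and MG53-TG, while the text of the study also describes organoids from MG53;Lgr5 and Lgr5 mice, in which all animals carry the Lgr5-EGFP-IRES-CreERT2 knock-in. The promoter of the transgene, the age of the animals and whether each sample came from its own animal or culture are not given in the sources used here, so p-values measure only the spread between these samples.

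Proteins that enter the ER are folded by chaperones such as BiP, calnexin and calreticulin, and their disulphide bonds are formed by protein disulphide isomerases that the oxidase ERO1 recharges. When unfolded proteins build up, the sensors IRE1, PERK and ATF6 start the unfolded protein response. IRE1 cuts an unconventional intron out of Xbp1 mRNA, ATF6 is released as a transcription factor, and PERK phosphorylates eIF2α, which slows translation in general while favouring that of Atf4. In the gut this machinery is known for its weight in Paneth and goblet cells, the secretory cells that export large amounts of antimicrobial peptides and mucin.

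Levels are given in FPKM, a measure of sequenced fragments scaled to transcript length and to the library's mapped total, summed over the transcript starts (or ends) of a gene. Fold changes are log2 differences of FPKM + 1, MG53-TG minus WT, with the standard error (SE) and the adjusted p of limma's moderated test over all genes, and a gene was called at an adjusted p of at most 0.05. Read counts are not given, so the depth behind each value is unknown. Trim72 had no entry in the 4 WT samples and was measured in every MG53-TG sample, with 16.4, 27.4, 31.9 and 36.5 FPKM. The summed level of 6 epithelial markers was 2038 to 2365 FPKM in WT and 1539 to 2044 FPKM in MG53-TG. Of these, Epcam was not called (0.02), Krt19 was not called (0.99), and Cdh1 (-0.80), Krt8 (-0.37), Krt18 (-1.11) and Cldn7 (-0.36) were called lower.

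Most of the ER folding genes were lower in the MG53-TG organoids, whereas Atf4 and its target Ddit3 were called higher. The groups overlapped for Atf4, and its call was lost in 5 of 19 alternative runs. Of the 38 members tested, 25 were called, beside 44.6% of all genes tested. Of these, 21 were called lower, 55.3% of the members tested, against a background of 29.1% of all genes tested. The 21 include Ern2, which passed the filter of 0.5 FPKM through WT alone, so nothing is read from its call. Another 4 members (Dnajb9, P4hb, Atf4 and Ddit3) were called higher, or 10.5%, against 15.6% of all genes, and 13 were not called. In 20 members all MG53-TG samples lay below all WT samples, an order found in 29% of all genes, and in 3 members all lay above, found in 15.7% of all genes. The median fold change of the members was -0.52, beside -0.17 for all genes, and single members ranged from -2.40 (Ero1l) to 1.03 (Ddit3).

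The median of all genes lay below 0, and the way the samples are scaled moves it. Median-of-ratios scaling raised the all-gene median by 0.16 and changed the calls over all genes from 3029 lower and 1622 higher to 2129 lower and 2122 higher, 20.4% in each direction. With that scaling 17 members were called lower and 4 higher.

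The MG53-TG samples were not alike. In 19 of the 38 members tested, samples 3 and 4 both lay below samples 1 and 2, as they did in 42.0% of all genes, and in 7 members both lay above, as in 20.2% of all genes. The split went through cell markers too. In order of sample number, the stem cell marker Olfm4 had 50.1, 57.7, 6.07 and 0.948 FPKM, and the goblet mucin Muc2 had 3.005, 7.86, 10.9 and 14.0 FPKM. With samples 3 and 4 left out together, a choice made after the data were seen, 21 members were called lower (55.3%, beside 22.3% of all genes) and 3 higher. Edem1 then gained a call (-0.60, limma adjusted p = 0.00446), Ern2 (-0.55, 0.158) and Atf4 (0.63, 0.115) lost theirs, and Sdf2l1 stood at -0.68 and Creld2 at -0.51, both still called.

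**Figure D1:**
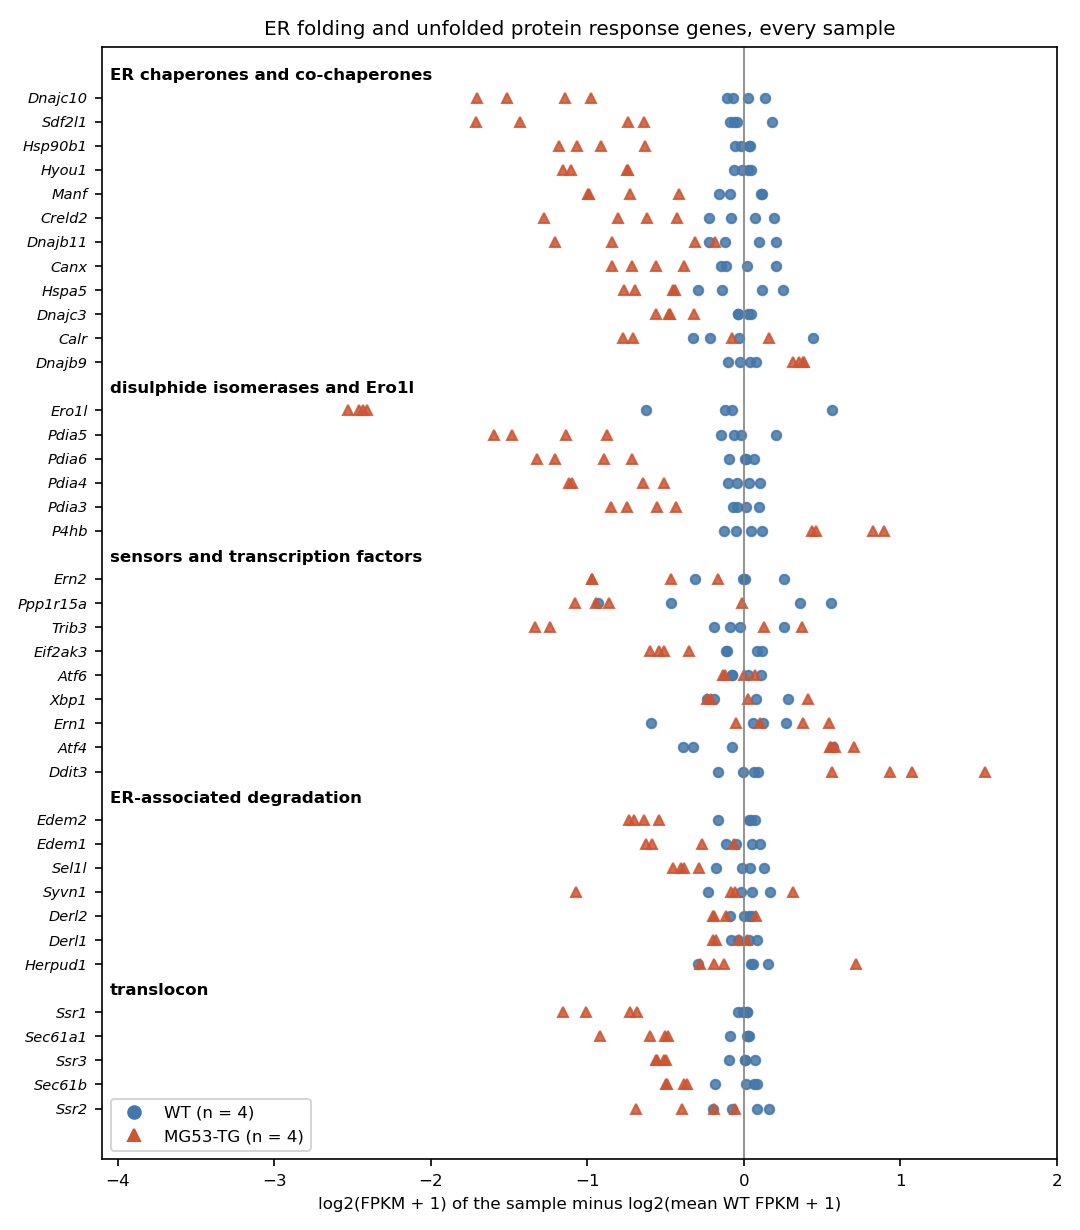
Each point is one sample of a member gene, given as log2(FPKM + 1) minus log2(mean WT FPKM + 1), with 4 WT samples as circles and 4 MG53-TG samples as triangles; genes are grouped by role. Derl3 is not drawn because it was too low to be tested, and Hsp90b1 is drawn from entries assigned by exon coordinates. In most chaperone, isomerase and translocon rows the triangles lie left of the circles, Ero1l lies farthest left, and Ddit3, Atf4, P4hb and Dnajb9 lie to the right.

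Most chaperones fell in the MG53-TG organoids: 8 of 11 tested were called lower (72.7%, beside 29.1% of all genes), 1 was called higher and 2 were not called, with a median fold change of -0.62. The largest change was in Dnajc10 (ENSMUSG00000027006, chromosome 2, 80315466 to 80354043), a co-chaperone that reduces disulphide bonds of misfolded proteins. Dnajc10 stood at 21.6, 18.0, 19.95 and 18.6 FPKM in WT and at 8.30, 9.44, 6.21 and 5.30 FPKM in MG53-TG. Every MG53-TG sample was thus below every WT sample, with a fold change of -1.33 ± 0.17 (SE, n = 4 per group, limma adjusted p = 0.000369).

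Sdf2l1, a partner of the BiP chaperone complex, was at 24.1, 28.2, 23.7 and 23.2 FPKM in WT and at 15.6, 14.4, 8.57 and 6.89 FPKM in MG53-TG. The groups did not overlap, the spread was wider in MG53-TG, and the fold change was -1.12 ± 0.24 (limma adjusted p = 0.00526). Hyou1, a nucleotide exchange factor for BiP, was at 39.2, 39.8, 36.7 and 38.1 FPKM in WT and at 22.6, 22.5, 16.7 and 17.4 FPKM in MG53-TG. Its 4 WT samples lay close together and well above the others, and the fold change was -0.94 ± 0.12 (limma adjusted p = 0.000429).

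Hspa5 encodes BiP itself, the Hsp70 chaperone that holds the sensors inactive in the unstressed ER (ENSMUSG00000026864, chromosome 2, 34771970 to 34777547). It was at 199, 290.4, 222 and 265 FPKM in WT and at 151, 143, 180.2 and 178 FPKM in MG53-TG. The highest MG53-TG sample was below the lowest WT sample, and the fold change was -0.57 ± 0.14 (limma adjusted p = 0.00965). Under median-of-ratios scaling the fold change was -0.38 and the call was lost (adjusted p = 0.104).

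Among the other chaperones, the neurotrophic factor-like Manf (-0.78), the disulphide isomerase-like Creld2 (-0.77), the lectin chaperone Canx (-0.62) and the BiP co-chaperone Dnajc3 (-0.46) were called lower, each with no overlap between the groups. The fold change of Dnajc3 was -0.28 with median-of-ratios scaling, and it was still called. Calr, the soluble lectin partner of calnexin, had overlapping groups at 122 to 207 FPKM in WT and 88.7 to 171 FPKM in MG53-TG (fold change -0.32, limma adjusted p = 0.321). Without WT sample 1, the highest of all, it was at -0.16, and with median-of-ratios scaling at -0.13.

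Dnajb11, another BiP co-chaperone, was at 25.2, 23.3, 18.5 and 19.9 FPKM in WT and at 19.0, 17.3, 11.7 and 8.86 FPKM in MG53-TG. The first MG53-TG sample lay within the WT range, and the fold change of -0.62 ± 0.23 missed the threshold (limma adjusted p = 0.0503). It was called in 6 of its 19 alternatives, among them without MG53-TG sample 1 (-0.78, adjusted p = 0.0217) and without MG53-TG sample 2 (-0.73, adjusted p = 0.0358). It was weaker and not called without MG53-TG sample 4 (-0.43), and without samples 3 and 4 together it was at -0.24 (adjusted p = 0.234).

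Dnajb9, a BiP co-chaperone that holds IRE1 in check, was the exception among the chaperones. It was at 8.18, 8.44, 7.81 and 7.35 FPKM in WT and at 10.4, 10.1, 10.7 and 10.6 FPKM in MG53-TG. All MG53-TG samples were above all WT samples, and the fold change was 0.36 ± 0.090 (limma adjusted p = 0.0119).

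Hsp90b1 encodes GRP94, the Hsp90 chaperone of the ER (ENSMUSG00000020048, chromosome 10, 86690209 to 86705509). Entries that match its exons carried the identifier of another gene, so it was not tested under the rule. When entries were assigned by exon coordinates alone, a choice made after the data were seen, Hsp90b1 was at 208, 215, 217 and 202 FPKM in WT and at 111, 135, 100.2 and 92.3 FPKM in MG53-TG. The groups did not overlap, and the fold change was -0.95 ± 0.12 (limma adjusted p = 0.000372, in a fit in which 28.9% of 10984 genes were called lower).

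The promoters of many ER chaperones carry the ER stress response element (ERSE), spelled CCAAT, any 9 bases and CCACG, at which NF-Y and the factors ATF6 and XBP1 are known to bind. RefSeq promoters (GRCm38.p6, 250 bases before to 50 after the start) were matched by symbol for 32 of the 40 members. Searched on both strands, the full ERSE was found in 9 of these 32, which is 28.1%, beside 0.119% of 32851 promoters of all genes. The 10 copies are printed except those in Derl3, which was not tested, and Syvn1, which was not called, so the printed set is not the full one. Capitals mark the outer letters of the motif, CCAAT and CCACG, or CGTGG and ATTGG where it lies on the other strand, and each run is read 5′ to 3′ on the strand of the gene. All lie before the RefSeq start, though the run of Hspa5 falls inside the longer GENCODE gene model.
Hspa5, chr2:34772010-34772058, plus strand: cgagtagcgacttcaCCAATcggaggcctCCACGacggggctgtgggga
Calr, chr8:84847060-84847108, minus strand: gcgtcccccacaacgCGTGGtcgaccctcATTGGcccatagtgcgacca
Hsp90b1, chr10:86705623-86705671, minus strand: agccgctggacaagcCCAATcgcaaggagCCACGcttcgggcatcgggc
Hsp90b1, chr10:86705518-86705566, minus strand: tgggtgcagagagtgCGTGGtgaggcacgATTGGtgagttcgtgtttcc
Canx, chr11:50325785-50325833, minus strand: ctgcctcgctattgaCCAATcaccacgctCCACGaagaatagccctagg
Pdia6, chr12:17266476-17266524, plus strand: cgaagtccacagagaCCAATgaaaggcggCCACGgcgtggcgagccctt
Dnajc3, chr14:118937812-118937860, plus strand: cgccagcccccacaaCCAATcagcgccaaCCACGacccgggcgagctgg
Creld2, chr15:88819505-88819553, plus strand: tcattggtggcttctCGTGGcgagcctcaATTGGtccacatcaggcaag

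Of the 9 members with an ERSE, 5 (Canx, Creld2, Dnajc3, Hspa5 and Pdia6) were called lower, Calr and Syvn1 were not called, and Derl3 and Hsp90b1 were not tested under the rule. Of the 23 matched members without it, 11 were called lower and 4 higher. Over all genes 29.1% were called lower and 15.6% higher, and the difference between members with and without the motif was not tested. Other elements were rare among the members. ERSE-II (ATTGG, any base, CCACG) was in the promoters of Herpud1 and Dnajb11, 6.25% of the members matched beside 0.0365% of all promoters. The core of the XBP1 element (tgacgtgg) was in 0 members beside 0.676% of all promoters, and the ATF4 element (ttgcatca) was in Herpud1 alone, 3.12% beside 0.895%. A match describes the letters only, and no binding was measured here.

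**Figure D2:**
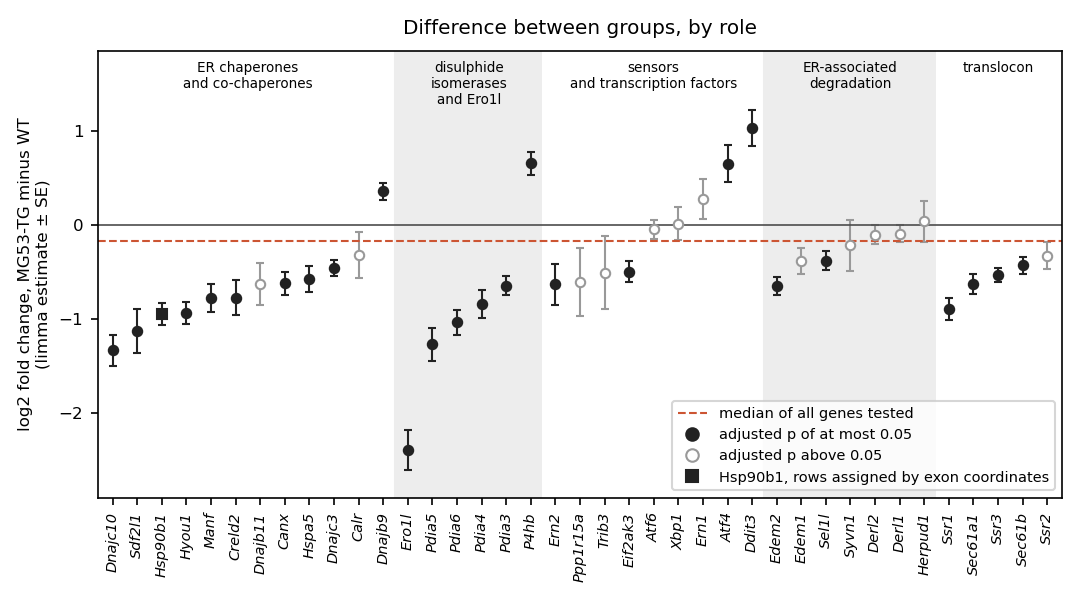
Points give the log2 fold change, MG53-TG minus WT, on log2(FPKM + 1), with the standard error of the limma fit as bars (n = 4 per group), by role; filled points passed an adjusted p of 0.05. The dashed line is the median of all 10420 genes tested, -0.17, and most chaperones, isomerases and translocon genes lie below it.

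All 6 genes of disulphide formation were called, 5 lower (83.3%, beside 29.1% of all genes) and 1 higher (16.7%, beside 15.6%), with a median fold change of -0.94. Ero1l, the oxidase that passes electrons from the isomerases to oxygen, changed most of all members (ENSMUSG00000021831, chromosome 14, 45283087 to 45318771). Ero1l was at 347, 236, 541 and 336 FPKM in WT and at 67.9, 62.3, 65.5 and 66.8 FPKM in MG53-TG. The MG53-TG samples were nearly equal while the WT samples varied widely, and the mean was 5.56 times higher in WT (fold change -2.40 ± 0.21, limma adjusted p = 5.45e-05). From transcript ends alone, which for this gene hold only part of its level, the fold change was -5.15.

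Pdia5, an isomerase known to act on ATF6, was at 7.19, 8.56, 6.95 and 6.49 FPKM in WT and at 2.77, 3.54, 1.97 and 1.74 FPKM in MG53-TG. Pdia6, an abundant isomerase that also tempers IRE1 and PERK signalling, was at 99.7, 99.0, 103 and 92.4 FPKM in WT and at 52.5, 59.6, 42.1 and 38.8 FPKM in MG53-TG. In both genes the groups were far apart, with fold changes of -1.27 ± 0.18 (limma adjusted p = 0.000657) and -1.03 ± 0.14 (adjusted p = 0.000496). Pdia4 (-0.84) and Pdia3 (-0.64), the isomerase that works with calnexin and calreticulin, were also lower with no overlap.

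P4hb, the founding isomerase PDI and also a subunit of prolyl 4-hydroxylase and of the microsomal triglyceride transfer protein, moved the other way (ENSMUSG00000025130, chromosome 11, 120560298 to 120573253). It was at 260.5, 279, 292 and 246 FPKM in WT and at 371, 365, 479 and 502 FPKM in MG53-TG. All MG53-TG samples exceeded all WT samples (fold change 0.66 ± 0.12, limma adjusted p = 0.00306), and the fold change was 0.43, still called, with quantile normalization. P4hb was thus the only disulphide isomerase of the 5 listed that rose, and it was also the most abundant of them in both groups.

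The translocon and the associated TRAP complex, through which new chains enter the ER, were mostly lower: 4 of 5 genes were called lower (80%, beside 29.1% of all genes) and none higher, with a median fold change of -0.53. Ssr1, a TRAP subunit, was at 33.1, 33.2, 32.5 and 31.9 FPKM in WT and at 20.02, 19.3, 15.7 and 14.2 FPKM in MG53-TG (fold change -0.89 ± 0.12, limma adjusted p = 0.000561). Sec61a1, which forms the channel, was at 57.6, 57.8, 57.2 and 53.0 FPKM in WT and at 36.9, 39.5, 39.98 and 29.4 FPKM in MG53-TG (fold change -0.63 ± 0.11, limma adjusted p = 0.0023). In both genes the WT samples lay close together and above every MG53-TG sample.

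Ssr3, a further TRAP subunit, was at 119.9, 115, 115 and 107 FPKM in WT and at 80.4, 76.9, 79.7 and 77.3 FPKM in MG53-TG, again without overlap (fold change -0.53 ± 0.072, limma adjusted p = 0.000594). Sec61b, the small subunit of the channel, was at 40.1, 33.7, 38.8 and 40.7 FPKM in WT and at 29.6, 29.2, 26.96 and 26.9 FPKM in MG53-TG (fold change -0.43 ± 0.093, limma adjusted p = 0.00602). Under median-of-ratios scaling Ssr3 was at -0.34 and still called, while Sec61b was at -0.24 and lost its call (adjusted p = 0.0567). Ssr2, the TRAP subunit not called, was at 98.2, 104, 87.7 and 80.4 FPKM in WT and at 89.1, 80.9, 70.1 and 57.1 FPKM in MG53-TG, with overlapping groups (fold change -0.32, limma adjusted p = 0.103), and it was called in 3 alternatives, one of them without MG53-TG sample 1 (-0.42, adjusted p = 0.0461). It was at -0.21 without MG53-TG sample 4, at -0.13 with median-of-ratios scaling and at -0.12 without samples 3 and 4 together, and was called in none of these.

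ER-associated degradation, which pulls misfolded proteins out of the ER to the proteasome, had 2 of 7 genes called lower (28.6%, beside 29.1% of all genes) and none higher, with a median fold change of -0.22. Edem2, the mannosidase that starts the trimming of glycans on such proteins, was at 20.9, 20.7, 21.3 and 17.9 FPKM in WT and at 13.5, 12.0, 12.7 and 11.8 FPKM in MG53-TG. The groups were separate and the fold change was -0.65 ± 0.096 (limma adjusted p = 0.000919). Sel1l, the scaffold of the ligase that marks these proteins with ubiquitin, was at 13.4, 16.8, 15.1 and 15.7 FPKM in WT and at 11.5, 11.3, 10.9 and 12.3 FPKM in MG53-TG (fold change -0.38 ± 0.10, limma adjusted p = 0.015). Its call was lost with median-of-ratios scaling (-0.20, adjusted p = 0.186) and with quantile normalization (-0.23, adjusted p = 0.117).

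Edem1, a mannosidase-like lectin and a known XBP1 target, was at 12.3, 13.0, 14.0 and 14.6 FPKM in WT and at 8.65, 8.40, 11.01 and 12.8 FPKM in MG53-TG. Only the fourth MG53-TG sample lay inside the WT range, the fold change of -0.38 ± 0.14 missed the threshold (limma adjusted p = 0.0554), and the gene was called in 2 alternatives, one of them without MG53-TG sample 4 (-0.49, adjusted p = 0.0174). With median-of-ratios scaling it was at -0.20 and not called. The ligase Syvn1, the channel proteins Derl1 and Derl2 and the ligase adaptor Herpud1 had overlapping groups and fold changes between -0.22 and 0.04. Derl3, whose expression is known to be limited to few secretory tissues, was at or below 0.128 FPKM in every sample and was not tested.

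The sensors showed no common direction. Ern1, which encodes IRE1α, was at 3.385, 1.80, 3.59 and 4.09 FPKM in WT and at 3.52, 4.47, 3.08 and 5.16 FPKM in MG53-TG. Atf6 was at 7.43, 7.94, 6.86 and 6.84 FPKM in WT and at 6.54, 7.67, 6.60 and 7.27 FPKM in MG53-TG. Both genes had overlapping groups, with fold changes of 0.28 ± 0.21 (limma adjusted p = 0.316) and -0.04 ± 0.10 (adjusted p = 0.75), and the sign for Atf6 flipped with both other scalings. Without WT sample 2, the lowest of its group, the fold change of Ern1 was 0.094.

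Eif2ak3, which encodes PERK, was at 5.07, 5.96, 5.10 and 6.12 FPKM in WT and at 3.61, 4.15, 3.52 and 3.32 FPKM in MG53-TG. All MG53-TG samples were lower (fold change -0.50 ± 0.11, limma adjusted p = 0.00754), and with quantile normalization the fold change was -0.33, still called. Ern2, which encodes IRE1β, the form known from mucosal epithelium, was low throughout, at 1.35, 0.97, 0.95 and 0.58 FPKM in WT and at 0, 0.75, 0.42 and 0 FPKM in MG53-TG. The values of 0 stand for samples with no end entry, the fourth MG53-TG sample did have a start entry, and the groups overlapped. Ern2 averaged 0.961 FPKM in WT and 0.293 FPKM in MG53-TG, so it passed the filter of 0.5 FPKM through WT alone. Its call is counted among the 21 members called lower, but nothing is read from it. The fold change of -0.63 ± 0.22 was called (limma adjusted p = 0.0427), but the call was lost in 12 of 18 alternatives. These included leaving out any one of WT samples 1, 2 and 3 or MG53-TG samples 1, 3 and 4 (-0.69 to -0.52, adjusted p from 0.0592 to 0.108). With a pseudocount of 0.1 the fold change was -1.99 and was not called.

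Within samples, Ern2 relative to Ern1 was -1.08 ± 0.50 in WT and -1.99 ± 0.51 in MG53-TG on the log2 scale (mean ± SD, n = 4 each). The difference of -0.91 had p = 0.0857 in an exact two-sided permutation test of 70 relabellings (adjusted p = 0.257 over the 3 pairs compared). The smallest p of this test is 0.0286, which for one pair alone adjusts to 0.0857, so the adjusted value could hardly pass and says little either way. Because Ern2 passed the filter through WT alone, nothing is read from its pair with Ern1. Derl3 was too near 0 for its ratio to Derl1 to hold more than the level of Derl1, and nothing is read from that pair.

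Xbp1 mRNA, the substrate of IRE1, stood at a like level in both groups (ENSMUSG00000020484, chromosome 11, 5520659 to 5525893). It was at 62.6, 64.5, 90.1 and 78.0 FPKM in WT and at 75.2, 63.7, 62.6 and 98.6 FPKM in MG53-TG. The ranges overlapped almost fully, and the fold change was 0.01 ± 0.17 (limma adjusted p = 0.953), with a sign that changed in 5 alternatives.

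The deposited splicing entries also listed the unconventional intron of Xbp1, in a form with the intron removed and a form with it retained. Removal of these 26 bases shifts the reading frame and gives the active factor XBP1s. They lie in exon 4 of transcript Xbp1-201, and are shown where the files place the removed form, in capitals, with 20 bases of the exon on each side, from the GENCODE M21 transcript on GRCm38, plus strand.
Xbp1, chr11:5524258-5524323, plus strand: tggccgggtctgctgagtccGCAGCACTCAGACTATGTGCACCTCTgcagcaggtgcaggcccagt

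Because the bases on both sides repeat, removing any of 7 neighbouring stretches gives the same mRNA, and one of these, CAGCACTCAGACTATGTGCACCTCTG at chr11:5524279-5524304, is the stretch between the sites at which IRE1 is known to cut. The form with the stretch removed was listed at 10.7, 78.8 and 16.6 FPKM in WT samples 1, 3 and 4 and at 5.73 FPKM in MG53-TG sample 1, and was not listed in the other 4 samples. Where it was listed it made up 20.4%, 97.1% and 25.2% of both forms in the WT samples and 9.83% in the MG53-TG sample. A second stretch of 26 bases that overlaps it, chr11:5524270-5524295, was listed as retained in every sample and in no sample as removed. The retained form was at 41.8, 48.4, 2.39 and 49.3 FPKM in WT and at 52.6, 52.6, 47.4 and 78.9 FPKM in MG53-TG.

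The removed form was thus listed in 3 of 4 WT samples and 1 of 4 MG53-TG samples, and WT sample 3 differed from all others in that nearly all of its Xbp1 was in that form. These values come from transcripts assembled in each sample, an unlisted form is not a measured 0, and no test was made. Across the other members a splicing event with both forms in every sample was found only in Sel1l, an intron retention whose groups overlapped.

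**Figure D3:**
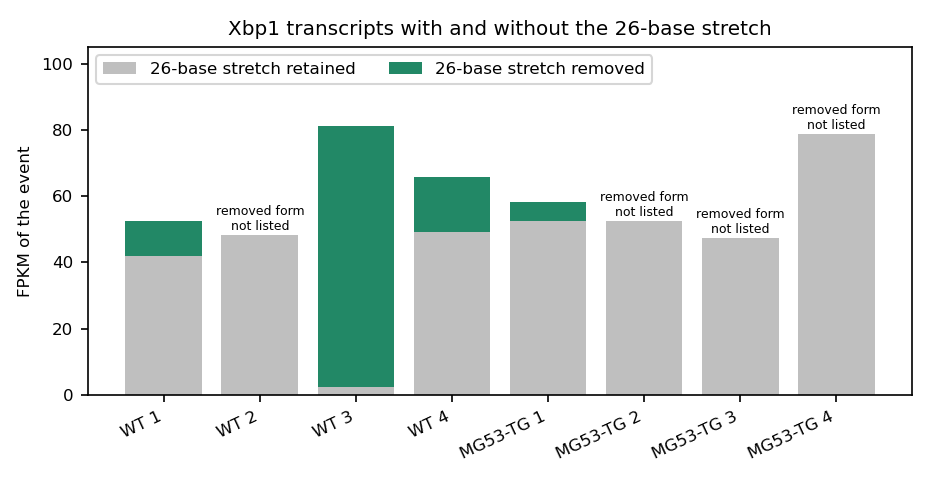
Bars stack the FPKM of Xbp1 transcripts that retain (grey) or lack (green) the 26-base stretch, for each of the 8 samples. The removed form reached 78.8 FPKM in WT sample 3 and at most 16.6 FPKM elsewhere, and was not listed in 4 samples.

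Atf4 and Ddit3, transcription factors downstream of PERK, were called higher. Atf4 (ENSMUSG00000042406, chromosome 15, 80255184 to 80257541), the main effector of the integrated stress response, was at 71.6, 68.3, 134 and 85.3 FPKM in WT and at 133, 135, 132 and 147 FPKM in MG53-TG. WT sample 3 lay among the MG53-TG samples and the other WT samples far below them. The fold change was 0.65 ± 0.19 (limma adjusted p = 0.0245), and the call was lost in 5 alternatives: quantile normalization (0.51, adjusted p = 0.0743) and leaving out WT sample 1 (0.56, 0.0656), WT sample 2 (0.54, 0.0641), WT sample 4 (0.65, 0.0551) or MG53-TG sample 4 (0.62, 0.056).

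Ddit3, which encodes the pro-apoptotic factor CHOP and is a known target of ATF4, had the largest rise of the members (ENSMUSG00000025408, chromosome 10, 127290774 to 127296288). It was at 11.2, 10.6, 11.5 and 9.42 FPKM in WT and at 21.4, 16.3, 23.7 and 33.0 FPKM in MG53-TG. The groups were well apart, the mean was 2.21 times higher in MG53-TG, and the fold change was 1.03 ± 0.19 (limma adjusted p = 0.00283). A second gene model of the same symbol overlaps this one, so the split of reads between them is uncertain. Ddit3 relative to Atf4 within samples differed by 0.38 between the groups on the log2 scale, with p = 0.2 in the exact permutation test, which has the same limit (adjusted p = 0.3).

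The further targets in the list had overlapping groups. Trib3, a pseudokinase that CHOP and ATF4 are known to induce, was at 11.2, 11.8, 14.5 and 10.4 FPKM in WT and at 13.2, 4.49, 4.15 and 15.8 FPKM in MG53-TG (fold change -0.51 ± 0.39, limma adjusted p = 0.314, and -0.80 to -0.24 with single samples left out). Ppp1r15a, which encodes GADD34, the phosphatase subunit that reverses the phosphorylation of eIF2α, was at 3.19, 7.50, 2.03 and 6.41 FPKM in WT and at 2.19, 4.74, 1.74 and 2.004 FPKM in MG53-TG (fold change -0.60 ± 0.36, limma adjusted p = 0.206, and -0.87 to -0.38 with single samples left out). For Trib3, MG53-TG samples 2 and 3 were below every WT sample while samples 1 and 4 were not.

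Many of the other genes known to respond to ATF4 were lower, unlike Atf4 and Ddit3. Of 24 tested from a list of 29, 15 were called lower (62.5%, beside 29.1% of all genes) and 2 higher (8.33%, beside 15.6%), with a median fold change of -0.85. Under median-of-ratios scaling 12 were lower and 2 higher, where all genes had 20.4% in each direction. Ddit4, an inhibitor of mTORC1, fell from 137, 143, 172 and 153 FPKM in WT to 38.9, 36.5, 24.4 and 26.97 FPKM in MG53-TG (fold change -2.24 ± 0.16, limma adjusted p = 1.79e-05). Psph, the last enzyme of serine synthesis, had a fold change of -1.76 ± 0.27 (adjusted p = 0.00116). The groups did not overlap in either gene.

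Atf3, a further transcription factor of the response, was called lower (-0.49, limma adjusted p = 0.0377). The called genes that rose in this list were Atf5, a related factor, at 0.89 ± 0.19 (limma adjusted p = 0.00528), and Cth, an enzyme of cysteine synthesis, at 0.60 ± 0.096 (adjusted p = 0.00138). Asns, asparagine synthetase, and Chac1, a glutathione-degrading enzyme, both well-known ATF4 targets and named after their values were seen, were lower at -0.72 and -1.05.

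**Figure D4:**
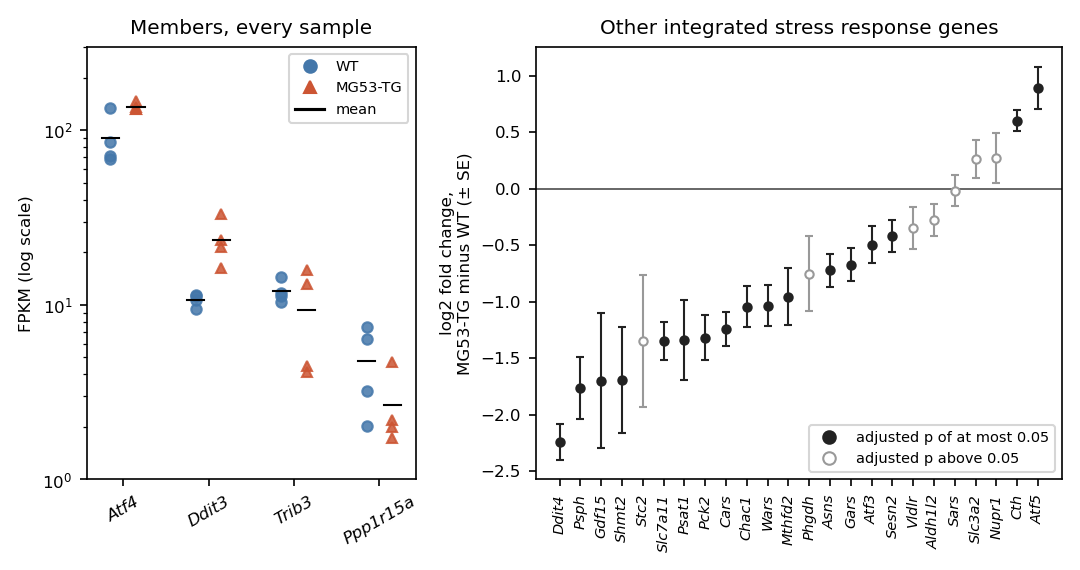
Left, FPKM on a log scale of 4 members downstream of PERK in every sample (WT circles, MG53-TG triangles, line at the mean); right, log2 fold changes with the standard error of 24 other integrated stress response genes (n = 4 per group), filled where the adjusted p was at most 0.05. Atf4 and Ddit3 were called higher in MG53-TG, with overlapping groups for Atf4, while 15 of the 24 other genes were called lower and 2 higher.

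Further genes of the secretory pathway that are not among the 40 were examined for comparison. Of 22 genes of translocation, signal peptide cleavage and N-glycan transfer, 11 were called lower (50% beside 29.1% of all genes) and none higher, with a median of -0.43. The signal peptidase subunits Sec11c (-1.02 ± 0.14, limma adjusted p = 0.000653) and Spcs3 (-0.95 ± 0.10, adjusted p = 0.000167) were lowest. Of 34 genes of glycoprotein folding and ER proteostasis, 15 were called lower (44.1%) and 1 higher (2.94%, beside 15.6% of all genes), with a median of -0.37. Under median-of-ratios scaling the counts were 6 lower and 0 higher in the translocation list and 11 lower and 3 higher in the folding list, where all genes had 20.4% in each direction.

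In that list Agr2, the isomerase that goblet cells need to make mucin, was at 98.3, 100.0, 76.0 and 78.0 FPKM in WT and at 7.66, 12.0, 15.6 and 19.2 FPKM in MG53-TG. This was a 6.47 times higher mean in WT with no overlap (fold change -2.66 ± 0.24, limma adjusted p = 6.6e-05). Txndc5, a further isomerase, had a fold change of -1.17 ± 0.089 (adjusted p = 2.65e-05). Ero1lb, the paralog of Ero1l, went the other way and was at 1.49, 0.99, 0.79 and 1.81 FPKM in WT and at 4.22, 4.09, 4.26 and 4.25 FPKM in MG53-TG (fold change 1.22 ± 0.16, adjusted p = 0.000422). The paralogous oxidases thus differed in direction, with Ero1l far the more abundant in both groups.

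Most Paneth and goblet markers tested were called lower, as most of the ER folding genes were, and most enteroendocrine markers tested were called higher. Not called were the Paneth markers Habp2 (-0.12), Nupr1 (0.27) and Guca2a (0.16) and the goblet markers Clca1 (-0.44), Zg16 (1.33), Creb3l1 (0.087) and Bcas1 (-0.68). The enteroendocrine markers Neurog3 (-0.22), Cck (-0.007), Sct (0.013) and Pyy (-0.64) were not called either. The summed level of the Paneth markers was 1391 to 1842 FPKM in WT and 507 to 653 FPKM in MG53-TG. Of 11 tested, 8 were called lower (72.7%, beside 29.1% of all genes). The 8 include Defa22 (mean 7.62 FPKM in WT and 0.028 FPKM in MG53-TG) and Pla2g2a (2.18 and 0.324 FPKM). These genes passed the filter of 0.5 FPKM through WT alone, so nothing is read from their calls. The goblet markers, Agr2 among them, summed to 697 to 790.1 FPKM in WT and 189.9 to 511 FPKM in MG53-TG. Of 10 tested, 6 were called lower (60%). Stem and proliferation markers summed to 737 to 904 FPKM in WT and 148 to 479 FPKM in MG53-TG, with 8 of 10 lower (80%). Enteroendocrine markers were at 232 to 250.1 FPKM in WT and 366 to 516 FPKM in MG53-TG. Of 9 tested, 5 were called higher (55.6%, beside 15.6% of all genes). Enterocyte markers were at 1043 to 1222 FPKM in WT and 12103 to 13236 FPKM in MG53-TG, with 12 of 12 higher (100%). For MG53;Lgr5 crypt organoids the study reports lower stemness and absorptive markers and higher secretory markers. The enterocyte markers and most Paneth and goblet markers here went the other way, stem and most enteroendocrine markers did not, and why was not tested. The text of the study does not name the marker genes of that comparison, so the lists here may differ from them. Its report of a shift to secretory cells also rests on single-cell proportions, tissue staining and sorting of organoid cells, which were not examined here. In bulk RNA fewer cells of a type and less RNA per cell cannot be told apart, and the part of these markers in the ER results was not tested. Of 8 plasma cell and immune markers, Cd79a, Jchain, Mzb1 and Cd74 had no entry, so no level is known for them, and Ptprc, Cd3e and Lyz2 were under 0.5 FPKM. Cd68, a macrophage and lysosome gene, was at 3.75 to 9.08 FPKM in WT and 0.469 to 1.28 FPKM in MG53-TG and was called lower (-1.84, limma adjusted p = 0.000549). Of 8 mesenchyme markers, Col1a2 and Col3a1 were called higher. They passed the filter of 0.5 FPKM through MG53-TG alone, so nothing is read from their calls. They had no entry in WT, where the fit set them to 0, and ranged from 0.739 to 2.07 and from 0.904 to 1.62 FPKM in MG53-TG samples 2 to 4, and sample 1 had no entry and was left out of the fit. Vim was not called (-0.41), and Pdgfra, Acta2 and Pecam1 had no entry. The part of the immune and mesenchyme markers was not tested either.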

How the data were processed

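RNA of 4 WT and 4 MG53-TG organoid samples was sequenced. Per the study's methods and the submitters' processing notes, reads were trimmed with cutadapt 1.9.1 and mapped with HISAT2 2.0.1 to mm10, and HTSeq 0.6.1 and DESeq2 are also named. The authors deposited FPKM of transcript events (starts, ends, splicing) per sample. Here the FPKM of a gene was the sum over its start rows, or its end rows where their mean was higher, with rows that match only another gene's exons in GENCODE M21 (4.58%) left out. A gene with no row was set to 0, or left missing where the median of its group reached 0.5 FPKM. Genes that averaged at least 0.5 FPKM over all samples were tested on log2(FPKM + 1) with limma 3.58.1 (R 4.3.3, trend), with Benjamini-Hochberg adjustment over all genes. The script was tested on simulated data. The members, gene lists and markers were chosen with earlier results of these data known. Values per sample are given for all sensors and factors, for the 3 largest calls per direction in each role, and for calls that an alternative changed; of the other lists, the 2 largest calls per direction are named. The alternatives covered pseudocount, filter, scaling, row choice, a replicate block and leaving out each sample.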

Additional observations from a re-analysis of the deposited data

Results flagged for a closer look

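In each group of 4 samples the value farthest from the rest was compared with the range of the group, over 76 groups of the 38 members tested. In 4 groups the gap exceeded the limit that chance passes in about 1 group in 20, and 3.8 such groups would arise by chance. Sdf2l1 was 28.2 FPKM in WT sample 2, above the other WT samples. Sec61a1 was 53.0 FPKM in WT sample 4, below the others of its group. Herpud1 was 50.1 FPKM in MG53-TG sample 3, above the rest of that group, and Ppp1r15a was 4.74 FPKM in MG53-TG sample 2. Of these 4 genes, Sdf2l1 and Sec61a1 were called lower without the sample in question too.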

How the results depend on the processing

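Of the 25 members called, 20 were called in every alternative run that tested them. Among these, Hyou1, Eif2ak3, Sec61a1 and Ssr1 were tested in 18 of the 19 runs. Of the 13 members not called, 4 kept their sign and stayed uncalled under each single change that tested them. Calr, 1 of these 4, turned to 0.076 with MG53-TG samples 3 and 4 left out together. The members called numbered 21 to 27 across alternatives, with 17 to 23 lower and 3 or 4 higher. No called value changed sign. With median-of-ratios scaling and quantile normalization the sign changed in Atf6 (0.13 and 0.12), Derl1 (0.092 and 0.0062) and Derl2 (0.069 and 0.059). Xbp1 turned with transcript ends alone (-0.085), with quantile normalization (-0.044), and, with single samples left out (-0.12 to 0.11), without MG53-TG sample 4, WT sample 1 or WT sample 2. Herpud1 turned without MG53-TG sample 3 or WT sample 3 (-0.19 to 0.14 over the samples left out), Syvn1 without MG53-TG sample 1 (-0.40 to 0.066 over the samples left out), and the ratio of Derl3, near 0 throughout, to Derl1 with a pseudocount of 0.1 (-0.34) and, among the fits that leave out a sample (-0.0091 to 0.083), without WT sample 1. The cause was not tested. Same-numbered samples did not deviate together (correlations -0.06 to 0.10), so the numbers are not taken to pair samples. With a replicate block 27 members were called (23 lower, 4 higher; Dnajb11, Edem1 and Ssr2 gained a call and Ern2 lost it) and 4238 of all genes, and the block fit could not reach a permutation p under 0.125 for the pairs. Depth was not given, so low genes such as Ern2 and Derl3 carry an unknown counting error.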
